A study of Mus musculus with 50 samples.

Results

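Stellate cells of the liver were taken here as segmented cells in which 4 transcripts of the resting stellate cell, Dcn, Cxcl12, Bmp5 and Hgf, summed to at least 4 counts and to at least 4% of the gene counts of the cell. Cells with more than 2 counts of Dpt, Lum, Mgp and Gsn, which mark portal fibroblasts, were left out, as were cells under 20 gene counts. The rule chose 1288 stellate cells of 49917 cells with at least 20 gene counts, or 2.58%, and these held 142024 gene counts. Because the rule used these 8 genes, their levels in the chosen cells are described and not tested, and tests of them use cells chosen without the gene or the sum over all cells.

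The cells came from livers of C57BL/6 mice collected at 18 months of age. HIRA fl/fl mice (HIRA KO) and wild-type mice (Control) had both received AAV8-TBG-Cre at 6 months and were then aged for 12 months, so that Cre exposure was shared and the hepatocyte-specific TBG promoter restricted the deletion of Hira, a chaperone of histone H3.3, to hepatocytes. Stellate cells were therefore not the cells targeted by the deletion, and Hira was not on the panel. Sections of 5 µm of the median lobe, 3 biological replicates per group, were imaged by CosMx, in which each decoded spot is a transcript of 1 of 1000 gene targets and is assigned to a segmented cell, and the labels, which name no mouse, give 25 fields of view per group. Fields of view with consecutive numbers and the same genotype formed 6 tissue areas, 3 Control and 3 HIRA KO, which served as replicates. Both genotypes shared 1 slide but took separate columns of it, so the position on the slide cannot be told apart from genotype.

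Stellate cells lie between hepatocytes and the sinusoidal endothelium, store vitamin A in the healthy liver and lay down a thin matrix. On liver injury they can become activated, a change known for the loss of vitamin A stores and the gain of fibrillar collagen and contractile proteins. In the resting state they are also known as a source of growth factors and chemokines for their neighbours, among them HGF for hepatocytes and CXCL12 for leukocytes and endothelium.

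Over the 6 areas the stellate cells numbered 226, 113 and 365 in Control and 150, 227 and 207 in HIRA KO. Their median depth was 101, 103 and 97 gene counts per cell in Control and 102.5, 97 and 112 in HIRA KO, so depth per cell differed little and the areas of both groups overlapped. Single cells held 21 to 368 gene counts. Of the 1000 gene targets, 798 had more counts in these cells than the highest of the 10 negative probes (62 counts), which match no transcript, and the levels of the remaining targets in these cells were within the range of background.

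Among the rule genes, Dcn and Cxcl12 carried most of the signal. Dcn encodes decorin, a small proteoglycan that binds collagen fibrils (chromosome 10, 97479500 to 97518163, GRCm38.p6), and gave 3977 counts, or 46.6% of the rule counts. Cxcl12 encodes the ligand of the receptor CXCR4 (chromosome 6, 117168535 to 117181368) and gave 3333 counts. Bmp5, a bone morphogenetic protein (chromosome 9, 75775365 to 75900316), gave 622 counts, and Hgf, the hepatocyte growth factor (chromosome 5, 16553495 to 16619439), gave 604. A count of Dcn was found in 94.1% of the stellate cells, of Cxcl12 in 90.5%, of Bmp5 in 34.4% and of Hgf in 33.2%. Both Dcn and Cxcl12 were found in 84.6% of the cells, all 4 genes in 118 cells, and neither Dcn nor Cxcl12 in 1 cell. The median sum was 6 counts and the highest 21. The chosen cells held 18.7% of the Dcn counts in cells, 13.1% of those of Cxcl12, 12.8% of Bmp5 and 9.81% of Hgf, so most transcripts of each gene lay in cells that the rule did not choose.

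Bgn, which was not used to choose cells, stood at 13024 CPM (gene counts scaled to a common total of the summed cells) in the 302 cells with a sum of 4 and at 11668 in the 328 cells with a sum of 3 that met every other limit. Cells at 4% to under 5% (401 cells) had 10368 CPM of Bgn and cells at 3% to under 4% (579 cells) 8969. At the limit on fibroblast genes, the 132 cells with a sum of 2 had 12414 CPM of Bgn, 3236 of Rgs5 and 1942 of Igfbp3, and the 57 cells with a sum of 3 that met every other limit had 10907, 2103 (Rgs5) and 2760 (Igfbp3). In these counts, pooled over areas and not tested, Rgs5 was lower and Igfbp3 higher in cells just outside this limit.

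Each rule gene was then checked in cells chosen with the other 3. Dcn stood 5.62-fold higher in 311 cells chosen without it than in all other cells, Cxcl12 3.94-fold higher in 430 cells, Bmp5 3.76-fold in 1114 cells and Hgf 2.90-fold in 1116 cells. Each held in 6 of 6 areas (exact sign-flip permutation test over areas, two-sided, p = 0.03125 for each gene and after Benjamini-Hochberg adjustment over the 4, the smallest p that 6 areas allow). For Dcn, the chosen cells ranged from 12589 to 22154 CPM over areas and the others from 1968 to 4199, and the ranges did not overlap. Classical stellate markers such as Lrat, Reln, Des and Gfap were not on the panel, and the label rests on the 9 stellate genes that were. All 5 of these outside the rule (Igfbp3, Rgs5, Ngfr, Pdgfrb and Pdgfra) were higher in the stellate cells than in other cells in 6 of 6 areas. Against the mesenchymal cells compared below, Ngfr was higher than in both types (log2 fold changes 1.19 and 1.73). Igfbp3 was lower than in portal fibroblast-type cells (-0.98). Rgs5 was higher than in those (1.94) but stood at -0.73 against smooth muscle-type cells, which was not called.

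Matrix genes led the genes outside the rule. Over all 992 such genes, 85 (8.57%) were higher in stellate cells than in other cells in all 6 areas and 180 (18.1%) lower, with a median log2 ratio of -0.14. These ratios are a description, taken as means over areas of CPM with an offset of 100. Bgn, encoding the proteoglycan biglycan, had 10449, 9503 and 15046 CPM in the stellate cells of the Control areas and 13514, 12900.1 and 12165 in those of HIRA KO, against 1500.0 to 3730.1 in other cells, a ratio of 4.11. Every area of stellate cells stood above every area of other cells, and both genotypes overlapped. In the portal fibroblast-type cells defined below, Bgn stood at 6816 to 13045 CPM, which overlapped the stellate cells. The level of Bgn was thus not particular to stellate cells. Col14a1, a fibril-associated collagen, followed at 3.63-fold, Tgfbi, a matrix protein induced by TGF-beta, at 3.18-fold, and Igfbp3 and Igfbp7, which bind insulin-like growth factors, at 3.04-fold and 2.80-fold. Col3a1 was 2.97-fold and Col1a1 1.98-fold higher. Serpinh1, the chaperone of collagen folding, stood at 2.23-fold and Col4a1, a basement membrane collagen, at 2.14-fold.

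Collagens as a list followed the same pattern. Of 14 fibrillar and fibril-associated collagens, 8 were higher in stellate cells in all 6 areas and 0 lower, with a median log2 ratio of 0.49 against -0.14 over all genes. Of 10 genes of basement membrane and sinusoidal matrix, 3 were higher (Bgn, Col4a1 and Col4a2) and 1 was lower, Col18a1, which hepatocytes are known to express.

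**Figure D1:**
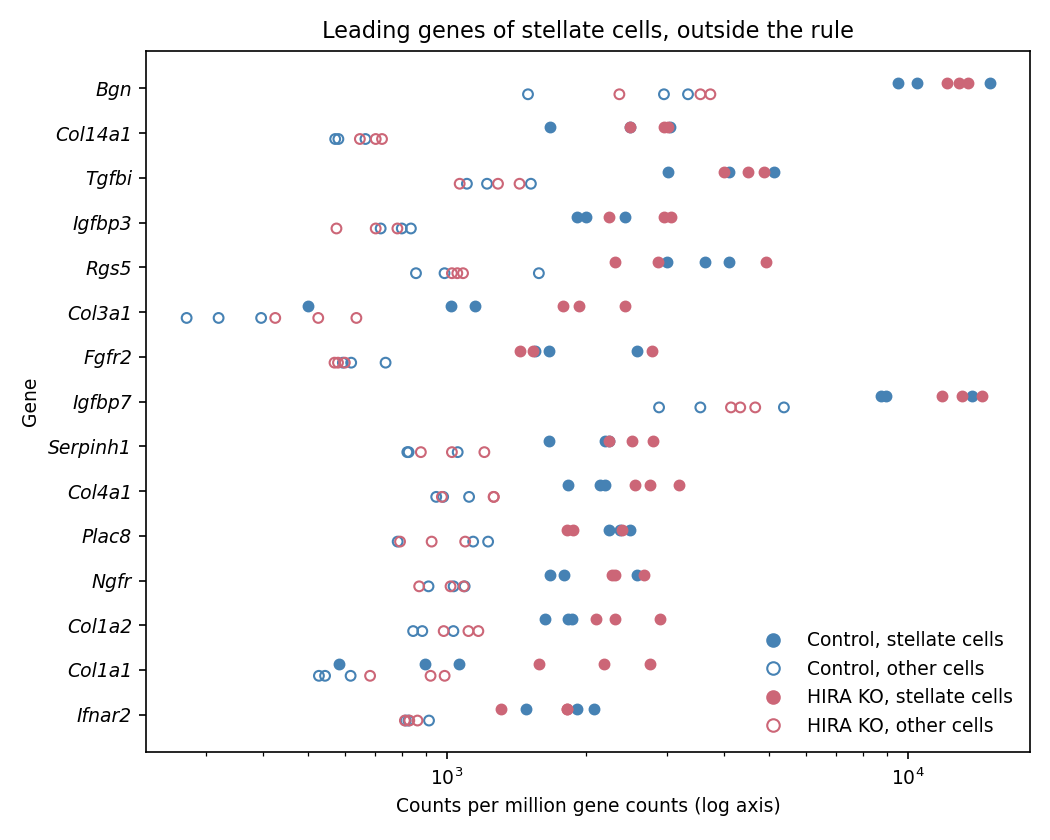
The 15 genes outside the rule with the highest ratio of stellate to other cells are plotted by CPM on a log axis, with 1 filled point per tissue area for stellate cells and 1 open point for all other cells of that area, in blue for Control and red for HIRA KO. For every gene shown the stellate cells stood above the other cells of their own area in 6 of 6 areas, and Bgn, at 12263 against 2907 CPM on average, showed the widest ratio.

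Genes of the pericyte came next. Rgs5, a regulator of G protein signalling found in pericytes, had 3632, 3001 and 4094 CPM in Control and 2878, 2312 and 4920.2 in HIRA KO, against 857 to 1584 in other cells. Ngfr, the p75 neurotrophin receptor carried by stellate cells, was 2.10-fold higher. Among 36 growth factor receptors, 7 were higher in all 6 areas and 10 lower. The highest ratio was that of Fgfr2, a receptor of fibroblast growth factors, with 1929 CPM on average in stellate cells and 617 in other cells, and Pdgfrb and Pdgfra, the PDGF receptors, had log2 ratios of 0.73 and 0.61. The lower ones included Kdr, Tek and Tie1 of endothelium and Met, Egfr and Insr of hepatocytes, although the last 3 had no more counts in stellate cells than the highest negative probe. Eng, also of the endothelial list, went the other way and was higher in 6 of 6 areas (2228 against 1335 CPM).

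Among ligands outside the rule, 3 of 35 growth factors were higher in all 6 areas and 6 lower, near the shares over all 992 genes (8.57% and 18.1%). Those higher were Rspo3, an amplifier of Wnt signalling (709 against 364 CPM), Vegfc (1186 against 786 CPM) and Jag1, a Notch ligand (1019 against 720.3 CPM). Of 27 chemokines and cytokines, Ccl19 (2791 against 1487 CPM), which attracts lymphocytes and dendritic cells, and Il34, a ligand of the CSF1 receptor (1118 against 602 CPM), were higher in all areas and 3 were lower. Genes of MHC class I and of the interferon response also stood higher, 8 of 17 with 0 lower. B2m, the light chain of MHC class I, was at 12569 against 6431 CPM, H2-D1 at a log2 ratio of 0.86 and Ifitm3 at 3711 against 1969. Rxra, a retinoid X receptor, was the member of 17 retinoid and lipid genes that was higher in all areas, at a log2 ratio of 0.39. Srebf1 and Nr1h3 of that list were lower in all areas. The growth factor, chemokine and retinoid counts were near or below the shares over all genes, so these lists did not stand out.

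Few contractile genes stood higher in these cells. Acta2, the smooth muscle actin, was at 822 CPM in stellate cells and 918 in other cells and was higher in 2 of 6 areas. Of 16 genes of activation and contraction, Thbs2, Itgb1 and Vim were higher in all 6 areas, with log2 ratios of 0.62, 0.57 and 0.51, and Spp1, abundant in biliary cells, was lower. Hepatocyte genes stood low as a list, 9 of 14 lower in all 6 areas with a median log2 ratio of -0.90. Apoe of that list went the other way, at 13920 against 12747 CPM (higher in 5 of 6 areas). The lowest single gene was Neat1, outside the list, at a ratio of 0.322. Ttr, encoding the carrier of thyroid hormone and retinol-binding protein, was at 11583 CPM in stellate cells and 30818 in other cells, a ratio of 0.378. The 14 hepatocyte genes still made up 4.76% of the counts of stellate cells on average, against 8.55% in other cells. By the class with the largest marker sum, 883 of the cells (68.6%) fell to the stellate class and 229 (17.8%) to hepatocytes. A further 20 fell to Kupffer cells, 27 to MHC class II cells and 103 to no class. The marker list of the stellate class includes the rule genes Dcn, Cxcl12, Bmp5 and Hgf, which chose these cells. The share of the stellate class is therefore a description and no independent check of the label. Some cells still carried more counts of a neighbouring type than of their own.

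Stellate cells were also smaller than the other cells of the same tissue area. Their median area was 9496.5, 7584 and 8031 square pixels in Control and 6492.5, 6504 and 6940.0 in HIRA KO, against 8763.5 to 16882.5 in other cells, and it was 0.602 times that of the other cells of the same area on average (smaller in 6 of 6 areas, exact sign-flip permutation test, p = 0.03125, adjusted p = 0.0469 over 9 measures). The nucleus was 0.820 times as large, with the same p and adjusted p by the exact test. The stains CD45 and B2M were brighter in 6 of 6 areas, CD45 at 1021.5 to 1723.9 against 651 to 1149 in other cells and B2M by 1.33-fold, and DAPI was brighter by 1.23-fold, while PanCK, the stain of epithelial keratins, was dimmer at 0.932 times (exact sign-flip permutation test, p = 0.03125 and adjusted p = 0.0469 for each). The ratio of median counts per cell was 0.895 (exact sign-flip permutation test, p = 0.219). CD45 protein is a leukocyte antigen, and the summed level of the 12 Kupffer and macrophage genes ranged from 1.09% to 2.45% of the counts of stellate cells over areas and was higher than in other cells in 4 of 6 areas. The part of adjacent leukocytes in the CD45 stain was not tested.

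**Figure D2:**
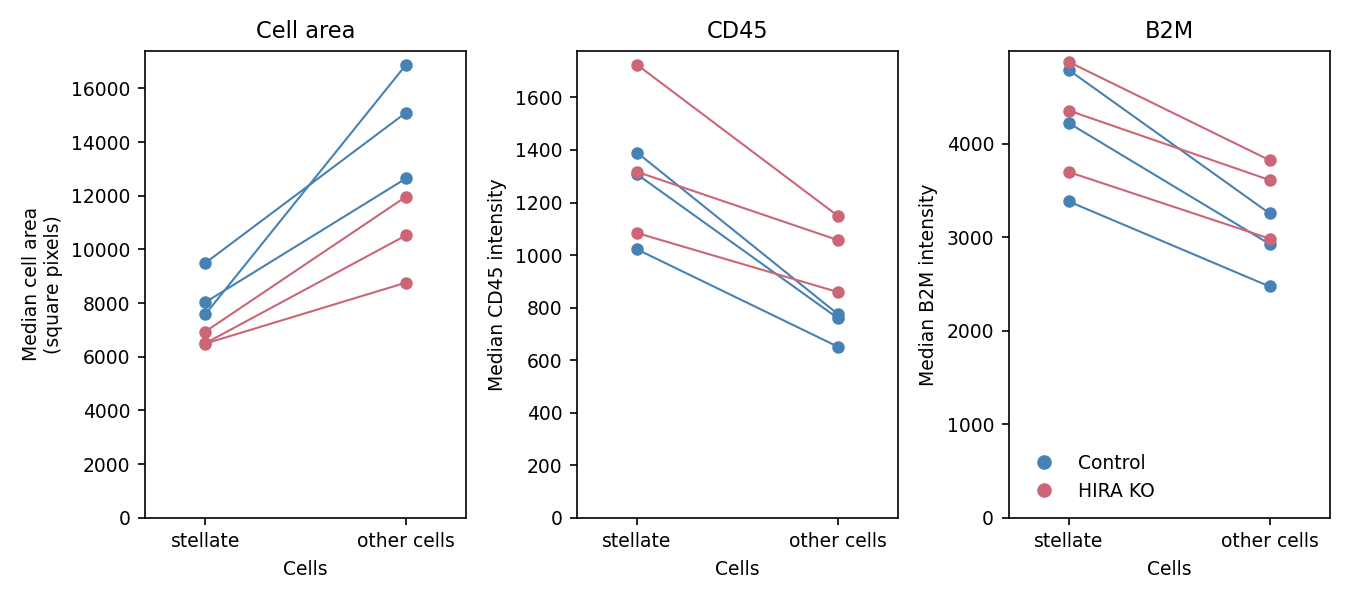
Median cell area in square pixels and median CD45 and B2M stain intensities per cell are plotted for stellate cells and for all other cells, with a line joining both values of each tissue area, in blue for Control and red for HIRA KO. In all 6 areas the stellate cells were smaller (0.602 times on average) and brighter for CD45 and B2M (1.33-fold).

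The position of transcripts inside the cells differed between gene groups. Of the transcripts of the 4 rule genes in stellate cells, 40.2% to 51.1% over areas lay in the nuclear compartment. For the 14 hepatocyte genes the range was 25.2% to 35.2%, a difference of 13.4 percentage points (SD 6.60, higher in 6 of 6 areas). Because the rule genes chose these cells, this difference is a description. In other cells the rule genes stood at 40.3% ± 2.31 and the hepatocyte genes at 29.9% ± 4.71 (SD, n = 6). The rule genes were thus more nuclear on average than the hepatocyte genes in other cells as well. In stellate cells all other genes stood at 54.8% ± 3.37 (SD, n = 6). Within the rule, Bmp5 and Hgf were more nuclear, at 59.6% ± 8.25 and 59.8% ± 4.95, than Dcn, at 39.9% ± 4.49 (SD, n = 6 areas each), a comparison for which no test was run.

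Around each stellate cell the 20 nearest cells were classed by their markers. Other stellate cells made up 3.53% of these neighbours, against 2.66% around other cells, and the difference of 0.874 percentage points (SD 0.459) held in 6 of 6 areas (exact sign-flip permutation test, p = 0.03125, adjusted p = 0.188 over 6 classes). It did not pass the adjustment. Kupffer cells and macrophages made up 3.27% against 2.79% (higher in 5 of 6 areas, exact test, p = 0.0625), endothelial cells 2.65% against 2.32% (4 of 6 areas, exact test, p = 0.125), hepatocytes 54.7% against 56.8% (exact test, p = 0.25) and biliary cells 2.55% against 3.27% (exact test, p = 0.25). None of the 6 classes passed the adjustment. Smooth muscle-class cells, not among the 6, made up 0.303% of the neighbours of other cells, and their share around stellate cells was different by -0.203 percentage points (SD 0.130), lower in 6 of 6 areas (exact sign-flip permutation test, unadjusted p = 0.03125). With 10 neighbours in place of 20, endothelial cells and macrophages were higher in 6 of 6 areas, by 0.501 and 0.371 percentage points (exact test, unadjusted p = 0.03125 each).

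To set stellate cells apart from other mesenchymal cells of the liver, they were compared with portal fibroblast-type cells, in which Dpt, Lum, Mgp and Gsn reached 4 counts and 4%. There were 191 such cells, 7 to 52 per area. After the 8 rule genes were left out, 35 of 165 genes (21.2%) passed edgeR's quasi-likelihood test with the tissue area as a block (Benjamini-Hochberg 0.05), 16 higher (9.7%) and 19 lower (11.5%) in stellate cells. Rgs5 was higher, at 2312 to 4920.2 CPM in stellate cells and 0 to 1708 in fibroblast-type cells with no overlap (log2 fold change 1.94, SE 0.34, adjusted p = 1.09e-05), and so were Fgfr2 (1.52), Ngfr (1.19) and Bmp2 (1.13), a ligand known from sinusoidal endothelium. Interferon-induced Ifit3/b and Ifitm1 were higher by 1.61 and 1.28, and C1qb and C1qa, complement genes of Kupffer cells, by 1.14 and 1.07. Of 7 genes of activation and contraction tested, 5 were lower and 0 higher, with a median of -1.04 against 0.03 over all genes tested. Acta2 was lower by the widest margin (log2 fold change -2.86, SE 0.31, adjusted p = 1.89e-11), at 500.2 to 1126 CPM in stellate cells. In fibroblast-type cells Acta2 stood at 10420 to 11745 CPM in Control areas but at 1653 to 3465 in HIRA KO areas, so the gap was narrower in HIRA KO. Vim, Tagln, Tpm2 and Itgb5 were the others. Of these, Vim was higher in stellate cells in 0 of 6 areas and Tagln, Tpm2 and Itgb5 in 1 of 6 each. Gas6, a ligand of the TAM receptors, was lower by 1.97 on the log2 scale, Igfbp3 by 0.98 and Col1a1 by 0.96, and 4 of 4 MHC class II genes were lower, Cd74 (-1.06) and H2-Ab1 (-0.97) among them. Ttr, Apoc1 and Gc of hepatocytes were higher in stellate cells, and the part of surrounding hepatocytes in this was not tested. With DESeq2, or without Control area 1 or Control area 3, the count of called genes was 21. When each area was left out in turn, the calls of Bmp2 and Tagln were lost in 3 of the fits each. Those of Tpm2 and Gc were lost in 2 each, and those of C1qa, Ifit3/b and Igfbp3 in 1 each.

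Against smooth muscle-type cells, in which Acta2, Tagln, Myh11 and Myl9 reached 4 counts and 4% (133 cells, 9 to 39 per area), 42 of 151 genes (27.8%) passed the same edgeR test, 22 higher (14.6%) and 20 lower (13.2%) in stellate cells. Tgfbi (log2 fold change 2.14, SE 0.39, adjusted p = 6.23e-05), Fgfr2 (1.74), Ngfr (1.73), Lgals3bp (1.65), Ifnar2 (1.55) and Plac8 (1.49) were higher. Tgfbi had 3020.3 to 5118 CPM in stellate cells and 0 to 1639 in smooth muscle-type cells, with no overlap. Of 9 interferon and antigen presentation genes tested, 5 were higher (B2m, H2-D1, H2-K1, Ifitm3 and H2-T23) with a median of 0.76 against 0.10 over all genes tested, and Bgn and Col14a1 were higher by 0.74 and 1.20. The tropomyosins Tpm2 and Tpm1 were lower by the widest margins (log2 fold changes -3.36, SE 0.25, and -2.84, SE 0.27), followed by Crip1 (-2.78), S100a6 (-2.40) and Sparcl1 (-2.04), and Vim and Cald1 were lower by 1.56 and 1.46. Tpm2 stood at 969 to 1417 CPM in stellate cells and 8779 to 15574 in smooth muscle-type cells. Rgs5, the 1 gene of the smooth muscle list tested here, stood at a log2 fold change of -0.73 and was not called. Both comparisons share the stellate cells, in which Fgfr2 stood 1.52 above fibroblast-type and 1.74 above smooth muscle-type cells on the log2 scale. With DESeq2 or without HIRA KO area 2, 28 genes were called. When each area was left out in turn, the calls of Lamp2 and Slc40a1 were lost in 3 of the fits each and those of C1qa and Marcksl1 in 1 each.

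**Figure D3:**
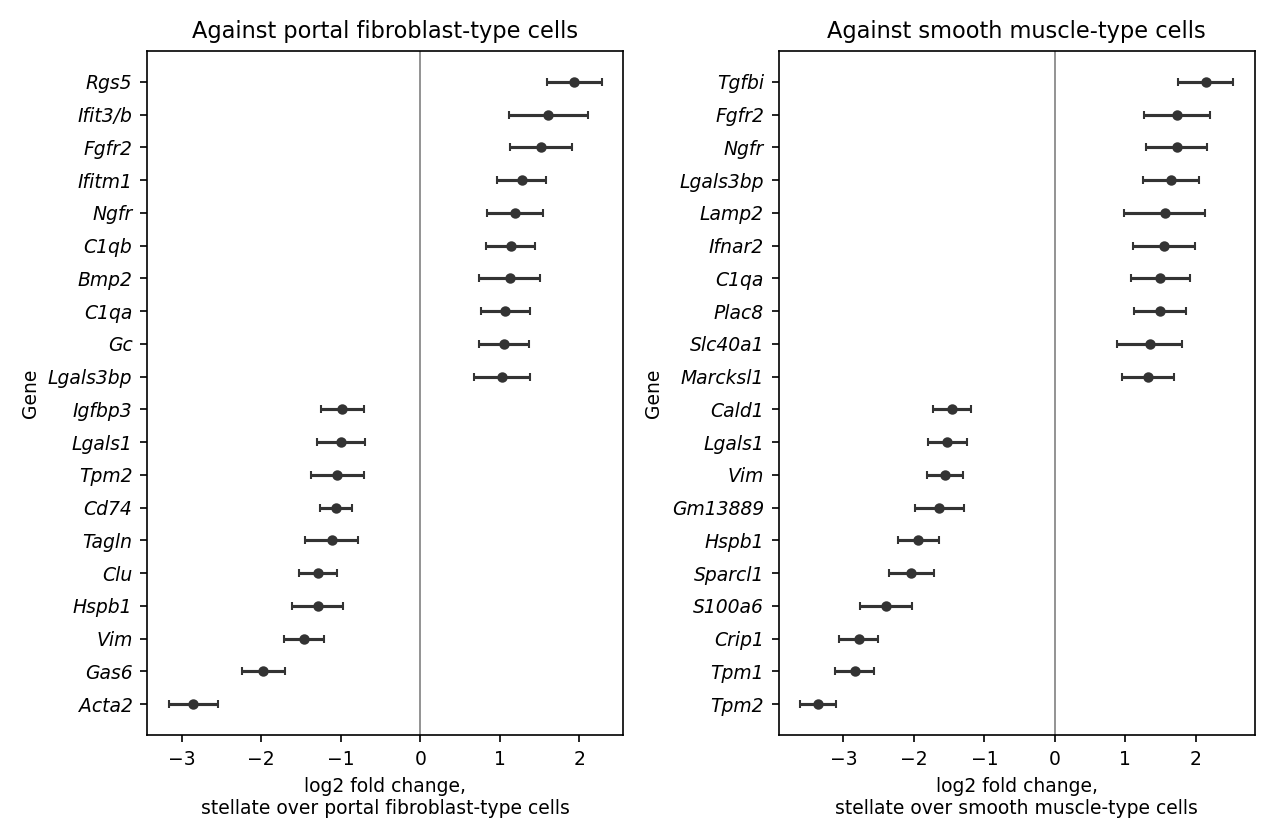
Log2 fold changes of stellate cells over portal fibroblast-type cells (left) and over smooth muscle-type cells (right) are plotted for up to 10 called genes per direction with the largest change, with bars for the standard error from edgeR. Rgs5 (1.94) and Acta2 (-2.86) mark the ends on the left, and Tgfbi (2.14) and Tpm2 (-3.36) those on the right.

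The next comparison asked whether the number of stellate cells differed between genotypes. They made up 2.76%, 1.65% and 5.17% of the cells of the Control areas and 1.47%, 2.24% and 2.75% of the HIRA KO areas. Control area 3 stood highest and the areas overlapped, with a mean share of 3.20% ± 1.80 for Control against 2.15% ± 0.644 for HIRA KO (SD, n = 3; p = 0.4, two-sided exact permutation test). With 3 areas against 3 the smallest possible p is 0.1, and without Control area 3 the difference shrank from -1.04 to -0.0543 percentage points. Per megapixel of cell area there were 1.85 ± 1.10 and 1.48 ± 0.253 stellate cells (exact permutation test, p = 0.8). When every cell was thinned to 50 gene counts and the rule applied at 2 counts, which sets a much looser limit, the shares were 9.42% ± 3.71 and 8.61% ± 0.926 (SD, n = 3, exact permutation test, p = 0.8). All 50 fields of view held stellate cells, from 0.645% to 6.83% of their cells. Fewer cells and fewer transcripts per cell cannot be told apart by a rule on counts. Levels of the rule genes over all cells did not pass the edgeR test between genotypes, with log2 fold changes of -0.09 for Dcn (SE 0.28, adjusted p = 0.944), -0.0027 for Cxcl12 (SE 0.27, adjusted p = 0.998), -0.12 for Bmp5 (SE 0.13) and -0.02 for Hgf (SE 0.12). The sign for Dcn, Cxcl12 and Hgf turned without Control area 3, to 0.21, 0.36 and 0.075. In that sum over all cells, 2 of 998 genes (0.2%) were called, with all HIRA KO areas above all Control areas for 6.61% of genes and below for 7.31%.

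**Figure D4:**
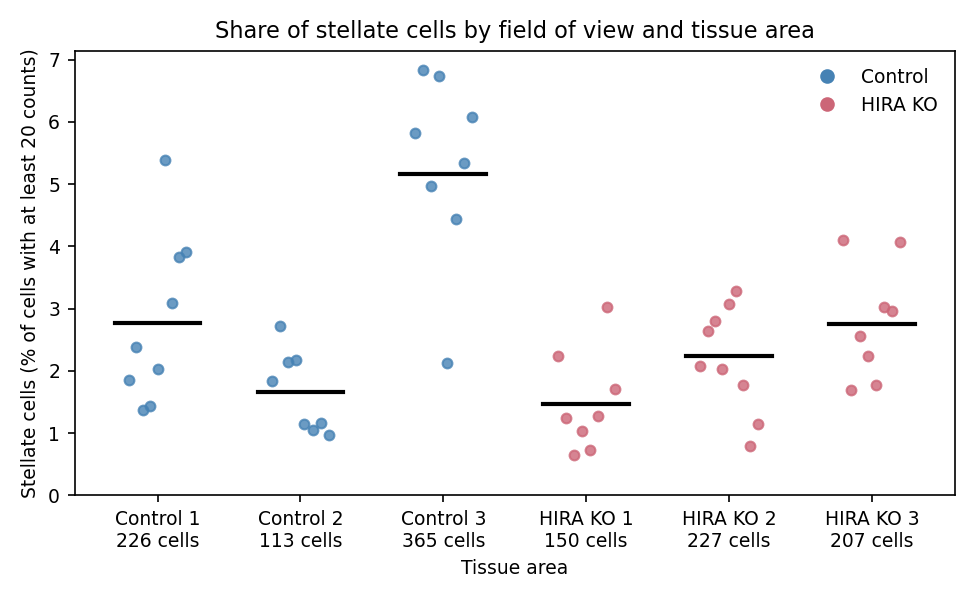
Each point is the share of stellate cells among cells with at least 20 gene counts in a field of view, the black line is the share over the tissue area, and areas are coloured blue for Control and red for HIRA KO. Shares per area ran from 1.47% in HIRA KO area 1 to 5.17% in Control area 3, and both groups overlapped.

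To examine what stellate cells express next to HIRA-deficient hepatocytes, their counts were summed per area and compared between genotypes. Of 874 genes outside the rule, 2 (0.229%) passed edgeR's quasi-likelihood test, both higher in HIRA KO, and 43 had an unadjusted p under 0.05. The first was Col1a1, which encodes the alpha-1 chain of type I collagen (chromosome 11, 94936224 to 94953042, GRCm38.p6). Its level in stellate cells was 1061, 584 and 896 CPM in Control and 2753, 2191 and 1588 CPM in HIRA KO, from 26, 7 and 35 counts and from 44, 54 and 41 counts. All HIRA KO areas stood above all Control areas. On the log2 CPM scale after TMM scaling the groups were at 9.86 ± 0.43 and 11.19 ± 0.31 (SD, n = 3), with a log2 fold change of 1.30 (SE 0.29, edgeR, adjusted p = 0.0335). A count of Col1a1 was found in 11.5%, 6.19% and 7.95% of the stellate cells in Control and in 23.3%, 18.9% and 12.6% in HIRA KO, so the level reflected a minority of cells in every area. The call held in 7 of 16 alternatives and the direction in all 16. It was lost in DESeq2 (log2 fold change 1.34, adjusted p = 0.189), in nuclear transcripts alone (1.08, adjusted p = 0.282), with a rule of 6 counts and 6% (1.46, adjusted p = 0.360), without both the area of highest and that of lowest share (1.20, adjusted p = 0.816), and on omission of any single Control area or of HIRA KO area 1 or 2 (1.15 to 1.46, edgeR, adjusted p = 0.0695 to 0.349). Col1a1 also rose in the sum over all cells (log2 fold change 0.73, SE 0.12, edgeR, adjusted p = 0.0309), a sum that includes the stellate cells, which held 3.88% of its counts. That call was lost with library size scaling (0.62, edgeR, adjusted p = 0.141) and on omission of Control areas 2 and 3 and HIRA KO areas 1 and 2, each in turn (edgeR, adjusted p = 0.0970 to 0.302). In other cells it was at 528 to 618 CPM in Control and 682 to 989 CPM in HIRA KO. The difference between stellate and other cells in the genotype effect was 0.59 (SE 0.26, edgeR interaction, adjusted p = 0.652), and 0 of 990 genes (0%) passed that test, with 66 at an unadjusted p under 0.05.

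Of the other collagens, Col3a1 and Col6a3 had the next largest values. Col3a1, of type III collagen (chromosome 1, 45311538 to 45349706), had 1020.4, 500.2 and 1151 CPM in Control and 1939.6, 1785 and 2441 in HIRA KO, with no overlap. It did not pass the test (log2 fold change 1.14, SE 0.29, edgeR, adjusted p = 0.0790), and passed with the slide row, which holds 1 area of each genotype, as a block (1.23, edgeR, adjusted p = 0.0028). Col6a3, of the beaded filament collagen VI, had 775, 834 and 665 CPM in Control and 1814, 2150.0 and 852 in HIRA KO (1.13, SE 0.31, edgeR, adjusted p = 0.111), and HIRA KO area 3 lay close to Control. Without that area it was called (1.43, edgeR, adjusted p = 0.0204). Of 13 fibrillar and fibril-associated collagens tested, 1 was called, 9 had a log2 fold change above 0 and 4 below, and 6 (Col1a1, Col3a1, Col6a3, Col6a1, Col1a2 and Col6a2) had all HIRA KO areas above all Control areas on the TMM-scaled log2 scale, where 5.72% of all genes tested did and 5.38% lay below in the same way. The median log2 fold change was 0.28 against 0.01 over all genes tested. Together the collagens made up 1.24% to 1.43% of the counts of stellate cells in Control and 1.71% to 1.81% in HIRA KO, and in other cells 0.839% to 0.899% and 0.798% to 0.964%. Col14a1, the collagen with the highest ratio to other cells, was at 1673 to 3045 CPM in Control and 2503 to 3022 in HIRA KO, with overlapping areas (log2 fold change 0.28, SE 0.29). Of 9 basement membrane and sinusoidal matrix genes, 0 were called, and Col4a1 stood higher in every HIRA KO area at a log2 fold change of 0.48 (SE 0.28, edgeR, adjusted p = 0.904).

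**Figure D5:**
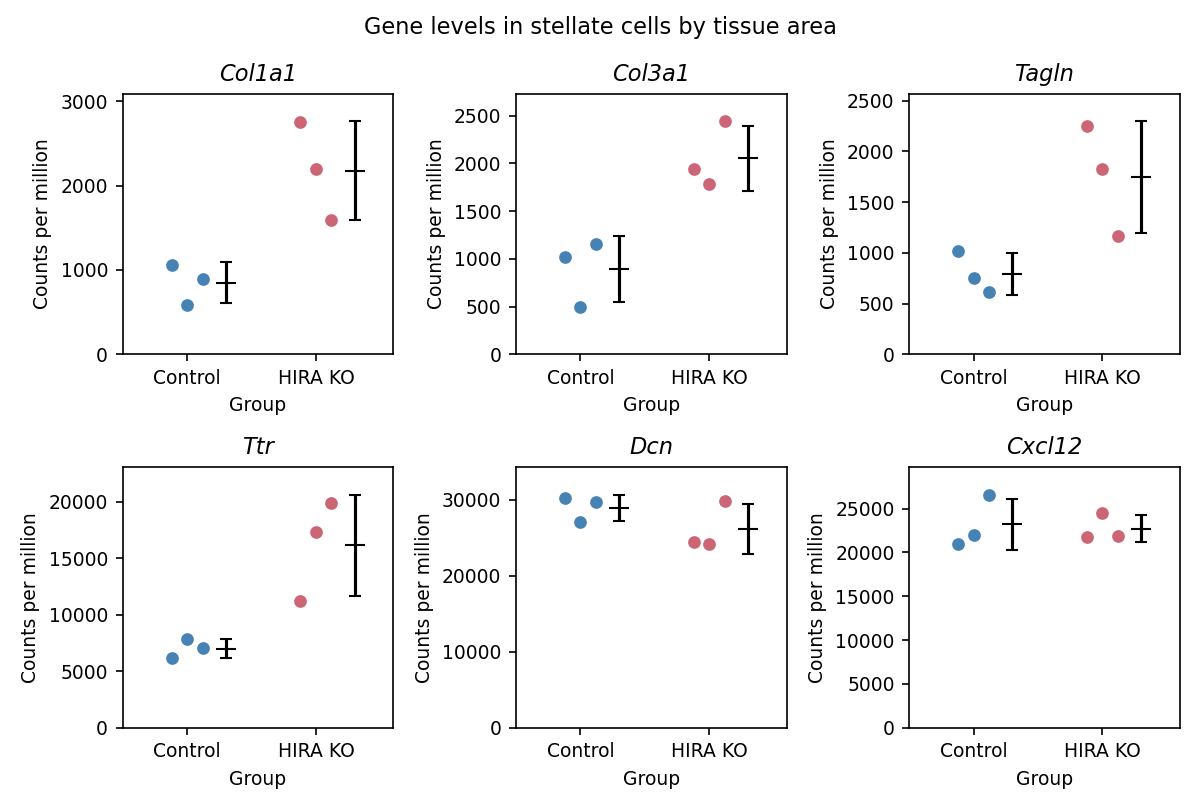
CPM of 6 genes in stellate cells is plotted with 1 point per tissue area, and the bar beside the points gives the mean and SD (n = 3). Col1a1, Col3a1, Tagln and Ttr did not overlap between genotypes and stood higher in HIRA KO, of which Col1a1 and Ttr passed the test, while Dcn and Cxcl12, which chose the cells, overlapped.

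Other mesenchymal markers were read beside the collagens. Tagln, encoding the actin-binding protein transgelin, had 1020.4, 750.2 and 614 CPM in Control and 2252, 1825 and 1162 in HIRA KO (log2 fold change 1.16, SE 0.30, edgeR, adjusted p = 0.0790). It passed with the slide row as a block (1.15, edgeR, adjusted p = 0.0141) and without HIRA KO area 3 (1.36, edgeR, adjusted p = 0.0289), and its difference from other cells in the genotype effect was 1.15 (SE 0.27, edgeR interaction, adjusted p = 0.0786). Acta2 did not pass the test (log2 fold change 0.45, SE 0.32, edgeR, adjusted p = 0.929). Of 15 genes of activation and contraction, 0 were called and the median was 0.21. Gas6 had 735, 584 and 742 CPM in Control and 2002, 1623 and 852 in HIRA KO (1.06, SE 0.31, edgeR, adjusted p = 0.170). Dpt, which the rule held to low counts, had 449, 584 and 435 CPM in Control and 1502, 1258 and 619.9 in HIRA KO, while Lum, Gsn and Mgp overlapped. Portal fibroblast-class cells made up 0.0983% ± 0.0113 of the 20 nearest neighbours of stellate cells for Control and 0.391% ± 0.237 for HIRA KO (SD, n = 3, exact permutation test, unadjusted p = 0.1). Shares by area were 0.111%, 0.0885% and 0.0959% in Control and 0.567%, 0.485% and 0.121% in HIRA KO. The areas did not overlap, but HIRA KO area 3 lay close to the highest Control area. The gap in means thus came from the other HIRA KO areas. This class was not among the neighbour classes adjusted together. The part of fibroblast transcripts in the collagen values was not tested.

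The second called gene was Ttr, a gene of hepatocytes. It had 6163, 7836 and 7062 CPM in stellate cells of Control and 11199, 17322 and 19913 in HIRA KO, with no overlap (log2 fold change 1.28, SE 0.29, edgeR, adjusted p = 0.0335). In other cells Ttr was at 15906 to 21401 CPM in Control and 25298 to 52617 CPM in HIRA KO, and the difference between stellate and other cells in the genotype effect was 0.05 (SE 0.13, edgeR interaction, adjusted p = 0.960). The whole hepatocyte list of 14 genes, all of them with counts in stellate cells above the highest negative probe, summed to 3.94% to 4.46% of the counts of stellate cells in Control and 4.70% to 6.12% in HIRA KO, and 1 of the 14 was called. In the 818 stellate cells with at most 5% of their counts in hepatocyte genes, Col1a1 stood at 1.41 on the log2 scale (edgeR, adjusted p = 0.0138). Ttr is itself among those genes, so its value in this subset (1.01, edgeR, adjusted p = 0.0717) depends on the selection and is no test of it. In nuclear transcripts alone the value for Ttr was 0.71 (edgeR, adjusted p = 0.742), and it was no longer called on omission of any single Control area or of HIRA KO area 2 or 3 (1.04 to 1.34, edgeR, adjusted p = 0.0700 to 0.477).

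In the other lists of stellate function 0 genes passed the test without a block. Of 30 growth factors tested, 0 were called and the median was 0.07. Of 33 growth factor receptors, 0 were called, and 21 had log2 fold changes below 0 with a median of -0.10. Acvr1, a BMP and activin receptor, had 1388, 1417 and 870.0 CPM in Control and 751, 811 and 542 in HIRA KO (log2 fold change -0.70, SE 0.31, edgeR, adjusted p = 0.876), Bmpr1a, the type IA BMP receptor, had -0.68 (SE 0.35) and Pdgfra -0.56 (SE 0.29). Over the 36 receptors on the panel the summed level was 3.25% to 3.35% of counts in Control and 2.73% to 3.06% in HIRA KO. Of 27 chemokines and cytokines, 0 were called. Cxcl13, which attracts B cells, stood at 1.42 (SE 0.46, edgeR, adjusted p = 0.343), a value that rested on 1 area, with 3061 CPM in HIRA KO area 3 and 406 to 834 in the 5 others, and was -0.37 without it. With the slide row as a block it passed (1.34, edgeR, adjusted p = 0.0141), as it did without HIRA KO area 1 or area 2 (edgeR, adjusted p = 0.0172 and 0.0209). Ccl11, eotaxin, had 0.88 (SE 0.30, edgeR, adjusted p = 0.509). Of 17 retinoid and lipid genes, 0 were called, with Rarb, a retinoic acid receptor, at -0.58 (SE 0.34), where Control ran from 614 to 1102 CPM and HIRA KO from 487 to 626. Of 25 immediate early and stress genes, 0 were called, and Hsp90ab1, a cytosolic chaperone, was at 1250.4 to 1918 CPM in Control and 2557 to 2637 in HIRA KO (0.71, SE 0.28, edgeR, adjusted p = 0.876). Of 13 genes of cell cycle and senescence, 17 of interferon and antigen presentation and 4 of matrix remodelling, 0 were called.

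Among the cell measures, the area of stellate cells separated the genotypes. Medians were 8371 ± 1000.4 square pixels for Control and 6646 ± 255 for HIRA KO (SD, n = 3; p = 0.1 in an exact permutation test, the smallest possible), with all HIRA KO areas below all Control areas. The median area of other cells was also lower in all 3 HIRA KO areas, and the difference from other cells was not tested. Median counts per cell, nucleus area, DAPI, CD45, CD3, PanCK and B2M intensities of stellate cells overlapped between genotypes. The neighbours of stellate cells were 49.8% hepatocytes for Control and 59.6% for HIRA KO (p = 0.2, exact permutation test), and 31.2% ± 5.01 and 18.4% ± 5.89 were cells of no class, without overlap (SD, n = 3, exact permutation test, p = 0.1). Around other cells the no-class share was also lower in all HIRA KO areas, at 10.6% to 22.9% against 25.7% to 34.2% in Control. It was thus not particular to the surroundings of stellate cells. The median distance to the nearest other stellate cell was 296 to 598 pixels in Control and 345 to 458 in HIRA KO.

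Finally, stellate cells were split by their distance to cells with high Glul, the glutamine synthetase of hepatocytes at the central vein. Cells with at least 5 counts and 5% of Glul numbered 14, 70 and 50 in the Control areas and 3, 12 and 102 in HIRA KO. No difference in distance from other cells passed the test, with a ratio of median distances of 1.03 (farther in 2 of 6 areas, exact sign-flip permutation test, p = 0.781). Between the nearer and the farther stellate cells of each area, 0 of 364 genes (0%) passed edgeR's test, with 13 at an unadjusted p under 0.05 and 0 called by DESeq2, and 0 passed for the difference of this split between genotypes in edgeR, with 20 at an unadjusted p under 0.05. The split distances ran from 1780 to 8123 pixels. Glul itself was not higher in the nearer stellate cells of Control area 1 (1545 against 1557 CPM) and HIRA KO area 1 (1422 against 1590 CPM), so the split did not separate Glul levels there. In Control area 3 the levels were also close (1684 against 1642 CPM). Because so few Glul-high cells were present in HIRA KO area 1, the split was repeated with cells at 3 counts and 3% and with biliary-class cells as the landmark, and 0 genes were called in either.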

How the data were processed

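Counts of decoded transcripts were deposited by the authors for each gene target in each segmented cell, without normalization, for 50 fields of view on 1 slide. The platform did the decoding and segmentation, with versions not given in the sources used here. Per the file headers, further tables hold the mean stain intensity and other measures of each cell (areas in square pixels, positions, aspect ratio) and the compartment of every one of 7557143 transcripts. Count and transcript tables differed in 0 cells. Library sizes and tests left out negative probes and the 6.88% of transcripts that lay outside cells. The study's clustering was not used here.

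The members, the gene lists and the tests were chosen with earlier results of these data known. Counts were summed per tissue area (11996 to 39081 in stellate cells) and tested with edgeR 4.0.16 in R 4.3.3 (quasi-likelihood test, TMM, filterByExpr, Benjamini-Hochberg adjustment over all genes fitted, at 0.05), with DESeq2 1.42.0 and limma-voom 3.58.1 as alternatives. CPM is the count of a gene scaled to a common total of the summed cells, and CPM of different genes was not compared, since probes differ in efficiency. Other measures were compared with exact permutation tests of area means or exact sign-flip tests over areas. The tissue area stood for the mouse, which the labels do not name, so p-values measure the spread between areas. Genes named are up to 10 called genes per direction and comparison with the largest fold, if their mean count exceeded that of every negative probe, the 2 genes of lowest p per list, the rule genes and the 15 leading genes. Others named were chosen after their values were seen. The interaction of stellate against other cells, the share outside the hepatocyte class, the splits at 3 counts of Glul and at biliary cells, the limit on immune genes and the omission of 2 areas were added after seeing the data. Gene fits were tested on simulated data. Gene positions are from RefSeq, GRCm38.p6.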

Additional observations from a re-analysis of the deposited data

How the results depend on the processing

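Of the genes called between genotypes in stellate cells, 2 in the edgeR fit, the count was 1 with DESeq2 (Ttr), 1 with limma-voom fitted to field-of-view sums (18 genes tested), 1 with a rule of 6 counts and 6% (115 genes tested), 0 in nuclear transcripts, 6 with the slide row as a block (Ttr, Col1a1, Col3a1, Tagln, Igkc and Cxcl13), 1 without Control area 3 and HIRA KO area 1 together, and 0 to 4 when 1 area was left out, with 0 for each Control area. Over all cells the 2 called genes became 11 with DESeq2, 1 with library size scaling, 19 with the slide row as a block and 1 to 3 when 1 area was left out. Against portal fibroblast-type cells 35 calls became 21 with DESeq2, 29 with no replicate block, and 21 to 35 when 1 area was left out, and against smooth muscle-type cells 42 became 37 with no replicate block and 28 to 35. For Glul-high cells, 0 calls became 0 to 1 when 1 area was left out, the call being H2-Eb1 without HIRA KO area 3, and stayed at 0 with no replicate block. The field numbers in the labels are not shared by the genotypes and pair no samples, so the slide row, with 1 area of each genotype, was the block tried between them.

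With the field of view as the unit, 25 against 25, the share of stellate cells differed by -1.08 percentage points (permutation test, p = 0.0166), but fields of an area share a tissue. Per megapixel the difference ran from -0.845 to 0.231 when 1 area was left out, reversing without Control area 3. The clustering of stellate cells ran from 0.747 to 0.9995 percentage points (exact test, p = 0.0625, the smallest that 5 areas allow) and was 0.706 with 10 neighbours (exact test, p = 0.0625). With 10 neighbours endothelial cells (0.501) and macrophages (0.3715), and with 50 neighbours endothelial cells (0.347), reached p = 0.03125 in the exact test. The nuclear share difference, a description, ran from 11.9 to 15.1 percentage points. Genotype differences of stellate cells that changed sign when 1 area was left out were median counts (-0.583 to 6.92), nucleus area (-176.5 to 56.5 square pixels), CD45 (-39.3 to 281), B2M (-195 to 508), the distance to the nearest stellate cell (-104 to 46.9 pixels) and to the nearest Glul-high cell (-1952 to 1219 pixels).

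Uncalled genes also changed sign. In stellate cells these were Vim (-0.0135 at 6 counts and 6%), Mmp14 (0.00721 at low hepatocyte counts, 0.15 without both areas, -0.26 to 0.0427 by area), Cxcl13 (-0.37 to 1.89), Gc (-0.0740 in nuclear transcripts, -0.22 at low hepatocyte counts), H2-Aa (-0.17 to 0.79), Ighm (-0.0379 at low immune counts), S100a8 (-0.85 to 0.12) and Hba-a1/2 (-0.0330 with library size, -0.54 in nuclear transcripts, -0.15 at low immune counts, -0.64 to 0.35). Over all cells they were Dcn (-0.37 to 0.21), Cxcl12 (0.0619 with the slide row, -0.20 to 0.36) and Hgf (-0.14 to 0.0750). The causes were not tested. Of the genes called between genotypes, Col1a1 had as few as 7 counts in an area, and some genes called between cell types had 0 in an area of fibroblast-type or smooth muscle-type cells.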
